A study of Homo sapiens with 6 samples.

Results

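The genes described here are 8 protein-coding genes that form 4 pairs of neighbours on 4 chromosomes: BEND4 with ATP8A1, SPSB4 with PXYLP1, GYPC with BIN1, and ILDR2 with GPA33. They were taken by symbol from tables that hold 60640 gene identifiers, of which 12652 had a mean of at least 1 FPKM and were tested. FPKM is a count of fragments scaled to transcript length and to the size of the library. All 8 members passed that limit. The pairs were picked because both genes of a pair differed in the same direction between the groups, so their own differences are given below as a description, without a p-value, and support nothing by themselves.

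The RNA came from MOLT-4, a long-established line of human T-ALL (acute lymphoblastic leukemia of T cells) grown in RPMI1640 with 10% FBS. The wild type group is the control of the CRISPR edit and holds 3 polyA libraries, and the group labelled IK-KO holds 3 libraries of MOLT-4 cells in which IKZF1, the gene of the DNA-binding protein IKAROS, was targeted with CRISPR-Cas. The edited and control cells were bought ready-made, and blots in the study show more than a single knockout clone. Which clone was sequenced is not in the labels, nor do they say whether replicates were separate cultures, so a p-value measures only the spread between libraries, and what is particular to the edited line cannot be told apart from the edit. IKZF1 RNA did not fall: wild type held 134, 124 and 105 FPKM and the libraries labelled IK-KO held 207, 260 and 207, with a log2 change of 0.89 (limma adjusted p 0.00295, SE 0.12). The study's methods name PCR and western blotting as checks of the knockout, and the tables hold no measurement of the protein. The higher RNA is not what a simple reading of the label would give, but RNA does not show whether the protein was lost. Every direction below is that of the libraries labelled IK-KO against wild type.

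Genes that lie side by side can share a chromatin domain, an enhancer or a stretch of gained or lost chromosome without sharing a function. IKAROS is known as a lymphoid regulator that recruits chromatin-modifying complexes, and the study behind these libraries examined broad repressive domains that can cover several genes. The FPKM tables hold RNA levels alone and carry no chromatin measurement.

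The proteins of a pair belong to different families. BEND4 carries a BEN domain, a fold found in DNA-binding and chromatin proteins, whereas ATP8A1 is a flippase that moves phosphatidylserine to the inner leaflet of membranes. SPSB4 is a substrate adaptor of a ubiquitin ligase and PXYLP1 a phosphatase that acts on the xylose of the glycosaminoglycan linker. GYPC is glycophorin C, which ties the red cell membrane to its skeleton, and BIN1 is a membrane-bending protein of the amphiphysin family. ILDR2 is an immunoglobulin-like receptor of the angulin group, and GPA33 is the A33 antigen, a surface protein best known from intestinal epithelium.

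The pairs were next to each other among the tested genes, with no tested gene between the partners, but 3 of them hold a silent or nearly silent coding gene in the gap. BEND4 (chromosome 4, 42110853 to 42152878, minus strand, GRCh38 here and throughout) and ATP8A1 (42408373 to 42657105, minus strand) are 255 kb apart with SHISA3 between them. SPSB4 (chromosome 3, 141051347 to 141148611, plus strand) and PXYLP1 (141228726 to 141367753, plus strand) are 80.1 kb apart with nothing listed between them. GYPC (chromosome 2, 126656133 to 126696667, plus strand) and BIN1 (127048027 to 127107288, minus strand) face each other across 351 kb that holds TEX51. ILDR2 (chromosome 1, 166895711 to 166975540, minus strand) and GPA33 (167052836 to 167166479, minus strand) are 77.3 kb apart with MAEL between them. These gaps are wide: the median gap of consecutive tested genes was 15.8 kb, and between 71.7% and 89.2% of all consecutive tested pairs were closer than the 4 pairs.

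The promoters are printed for the pair that was higher and for the pair in which the first ILDR2 window and the GPA33 window differ most in CpG count, so that the partners can be read side by side. RefSeq windows on GRCh38.p14 run from 250 bases before to 50 bases after a start and were found for all 8 genes, with 2 windows for ILDR2. Capitals mark GGGAA, the core of the sequence that IKAROS binds, or its reverse complement TTCCC.
SPSB4 (chr3:141051097-141051396, plus strand): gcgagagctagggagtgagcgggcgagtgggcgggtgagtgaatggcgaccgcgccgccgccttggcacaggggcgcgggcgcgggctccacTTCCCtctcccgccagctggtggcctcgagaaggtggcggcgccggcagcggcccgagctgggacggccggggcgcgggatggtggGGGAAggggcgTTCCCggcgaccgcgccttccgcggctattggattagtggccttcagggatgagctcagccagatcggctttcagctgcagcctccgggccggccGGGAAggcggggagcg
PXYLP1 (chr3:141231575-141231874, plus strand): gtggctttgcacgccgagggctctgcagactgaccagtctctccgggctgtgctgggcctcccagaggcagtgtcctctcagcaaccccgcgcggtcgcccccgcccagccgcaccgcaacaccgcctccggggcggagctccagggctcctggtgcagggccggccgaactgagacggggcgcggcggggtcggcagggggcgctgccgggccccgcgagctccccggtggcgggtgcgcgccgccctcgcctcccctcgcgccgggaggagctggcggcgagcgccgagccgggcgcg
ILDR2 (chr1:166975491-166975790, minus strand): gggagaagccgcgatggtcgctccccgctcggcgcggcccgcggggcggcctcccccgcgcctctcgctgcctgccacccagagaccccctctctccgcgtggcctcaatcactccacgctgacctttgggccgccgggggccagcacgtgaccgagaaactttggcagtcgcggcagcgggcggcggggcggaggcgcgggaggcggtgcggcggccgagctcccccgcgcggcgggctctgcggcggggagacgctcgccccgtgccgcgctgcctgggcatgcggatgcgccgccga
GPA33 (chr1:167090328-167090627, minus strand): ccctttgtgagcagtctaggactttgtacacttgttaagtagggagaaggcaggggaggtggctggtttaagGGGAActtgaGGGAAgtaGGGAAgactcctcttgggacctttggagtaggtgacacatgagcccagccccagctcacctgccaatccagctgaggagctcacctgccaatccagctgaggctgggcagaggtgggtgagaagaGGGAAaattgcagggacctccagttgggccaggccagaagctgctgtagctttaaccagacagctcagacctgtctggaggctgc

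Partners differed in these letters. SPSB4 held 4 matches to GGGAA and PXYLP1 held 0, GPA33 held 4 and both ILDR2 windows held 0, BEND4 held 2 and ATP8A1 held 0, and BIN1 held 1 and GYPC held 0. In all 4 pairs, then, the letters occurred in the window of a single partner. Of the 35116 RefSeq windows of this length, 65.0% hold GGGAA on either strand, so a match is common. The longer TGGGAA, which contains GGGAA, occurs in 24.0% of windows and in none of the 9 windows of the members. A match is a string of letters and not a measured binding site, and its absence concerns this window alone.

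Base composition was also counted. The first ILDR2 window holds 47 CpG dinucleotides, more than 97.6% of all windows, at 78.3% GC. The second ILDR2 window, of another start, holds 0 CpG at 52.0% GC, and the GPA33 window likewise holds 0 CpG at 56.3% GC, so the partners differ or resemble each other with the start that is taken. The windows of SPSB4 and PXYLP1 are alike in this respect, with 37 and 40 CpG. ATP8A1 and BIN1 hold 36 and 38, BEND4 holds 25 and GYPC 18, against a median of 14 over all windows. The windows of GPA33 and PXYLP1 and the second ILDR2 window lie wholly inside the spans that the tables give. That of GPA33 ends at 167090627, in a span that runs to 167166479. The starts taken for BEND4, BIN1 and GYPC also lie slightly inside their spans. The tables do not say which start was used in these cells.

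Against this layout, 6 members were lower and 2 were higher in the libraries labelled IK-KO. The groups of 3 libraries did not overlap for any of the 8 members, where 39.0% of all tested genes have groups that do not overlap. All 8 also had a limma adjusted p under 0.05, where 19.9% of tested genes do; as the members were chosen on this contrast, nothing is read from either count. On the log2(FPKM + 1) scale, the scale of every log2 change here, the differences ran from -2.14 for ATP8A1 to 1.74 for SPSB4 and PXYLP1. Among all tested genes, 2.10% were called with at least a 2-fold fall and 1.09% with at least a 2-fold rise on that scale.

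**Figure D1:**
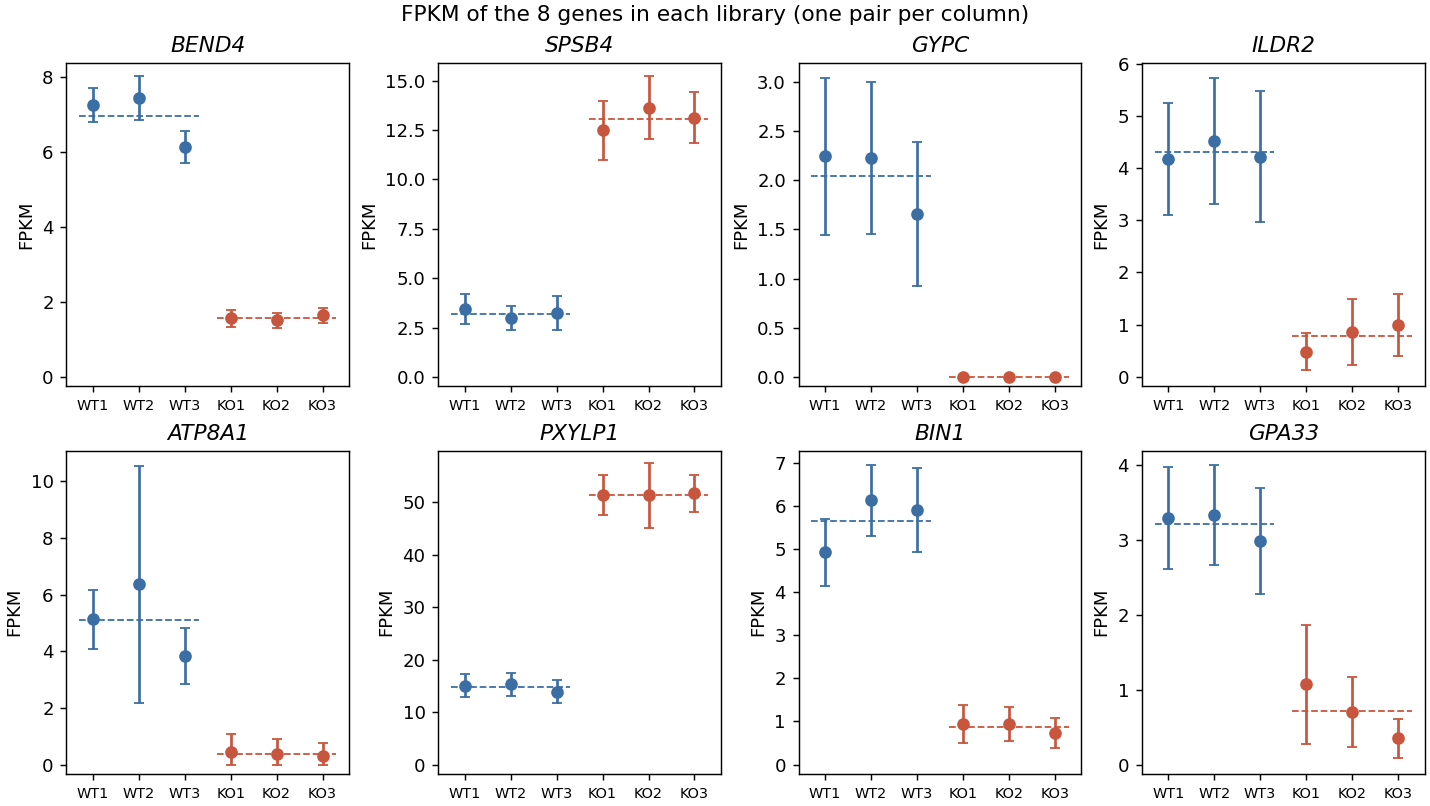
FPKM of the 8 genes (y axis, linear, 1 pair per column) in wild type replicates 1 to 3 (WT1 to WT3, blue) and in the libraries labelled IK-KO (KO1 to KO3, red), with error bars for the confidence bounds listed in the tables and dashed lines at the group means. BEND4, ATP8A1, GYPC, BIN1, ILDR2 and GPA33 lie lower in all 3 libraries labelled IK-KO, SPSB4 and PXYLP1 lie higher in all 3, and GYPC is listed at 0 in each of them.

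SPSB4 and PXYLP1 were the pair that was higher. SPSB4 measured 3.42, 2.98 and 3.22 FPKM in wild type against 12.5, 13.6 and 13.1 in the libraries labelled IK-KO. The lowest library of the second group thus lay well above the highest of the first. Its mean went from 3.21 ± 0.219 to 13.1 ± 0.579 FPKM (SD, n = 3), a ratio of 4.08 and a log2 change of 1.74 (SE 0.09).

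PXYLP1, the most abundant of the 8 in both groups, measured 15.05, 15.3 and 13.9 FPKM in wild type against 51.4, 51.4 and 51.7 in the libraries labelled IK-KO. Its 3 libraries labelled IK-KO were nearly equal. The mean went from 14.7 ± 0.753 to 51.5 ± 0.195 FPKM (SD, n = 3), a ratio of 3.50 and a log2 change of 1.74 (SE 0.06). The log2 changes of the partners were the same to 2 decimals with 1 added to the FPKM, but not with 0.1 added (1.996 for SPSB4 and 1.80 for PXYLP1) or as ratios. Both genes are transcribed in the same direction, and PXYLP1 lies downstream of SPSB4. Fragments that run on from a gene into the next could not be examined, because the tables hold 1 value per gene.

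BEND4 and ATP8A1 were both lower. BEND4 measured 7.26, 7.44 and 6.13 FPKM in wild type against 1.56, 1.51 and 1.64 in the libraries labelled IK-KO. Its RNA was still present in each of these, with a lower confidence bound of at least 1.30 FPKM. The mean ratio was 4.42 in favour of wild type, and the log2 change was -1.62 (SE 0.12).

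ATP8A1 had the most negative log2 change of the 8 with 1 added to the FPKM (with 0.1 added, GYPC did), at 5.12, 6.36 and 3.83 FPKM in wild type against 0.447, 0.368 and 0.293 FPKM. The lower bound is 0 in each library labelled IK-KO, so these values cannot be told from 0. The wild type value of replicate 2 is the least certain, with bounds of 2.17 and 10.5 FPKM, yet the lowest wild type bound (2.17 FPKM) lay above the highest bound in the other group (1.07 FPKM). The means were 5.10 ± 1.26 and 0.370 ± 0.0770 FPKM (SD, n = 3), a ratio of 13.8 and a log2 change of -2.14 (SE 0.18). SHISA3, which attenuates Wnt and FGF receptors and lies between these partners, was under the limit for testing. It measured 0.243, 0.231 and 0.409 FPKM in wild type against 0, 0.0433 and 0 in the libraries labelled IK-KO, which was not tested. DCAF4L1, another coding gene under the limit and 124 kb from the pair, measured 0.243, 0.395 and 0.2535 FPKM in wild type. In the libraries labelled IK-KO it measured 0.542, 0.339 and 0.497 FPKM, so its groups overlap, and this was not tested either. In bulk RNA, fewer cells that hold a transcript and less of it per cell cannot be told apart, here and for each member.

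GYPC measured 2.24, 2.23 and 1.66 FPKM in wild type and was listed at 0 in each library labelled IK-KO, so no ratio is given. It had the lowest wild type level of the 8. On the log2(FPKM + 1) scale its change was -1.60 (SE 0.18), a value that depends on the added 1 and is no bound. With 0.1 added in place of 1 it was -4.41. BIN1, its neighbour, measured 4.93, 6.14 and 5.92 FPKM in wild type against 0.940, 0.944 and 0.732 in the libraries labelled IK-KO. Unlike GYPC it remained measurable, with lower bounds of at least 0.376 FPKM. The means were 5.66 ± 0.643 and 0.872 ± 0.121 FPKM (SD, n = 3), a ratio of 6.50 and a log2 change of -1.83 (SE 0.14). TEX51, between these partners, was listed at 0 in all 6 libraries. PROC, a coding gene under the limit for testing and 311 kb from the pair, measured 0.231, 0.255 and 0.188 FPKM in wild type. In the libraries labelled IK-KO it measured 0.549, 0.627 and 0.490 FPKM, opposite in direction to the pair, and this was not tested.

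ILDR2 measured 4.17, 4.52 and 4.22 FPKM in wild type against 0.487, 0.862 and 0.989 in the libraries labelled IK-KO. The wild type libraries were close to each other and the others were less even. The means were 4.30 ± 0.190 and 0.779 ± 0.261 FPKM (SD, n = 3), a ratio of 5.52 and a log2 change of -1.59 (SE 0.16). GPA33 measured 3.29, 3.33 and 2.99 FPKM in wild type against 1.07, 0.702 and 0.348 in the libraries labelled IK-KO. Replicate 1 was the highest of these 3 for GPA33 and the lowest for ILDR2, so within that group the partners did not rank alike. The GPA33 means were 3.20 ± 0.187 and 0.708 ± 0.363 FPKM (SD, n = 3), a ratio of 4.53 and a log2 change of -1.32 (SE 0.19). This was the smallest log2 change of the 8 with 1 added, whereas by ratio PXYLP1, SPSB4 and BEND4 changed less. MAEL, a germline gene of the piRNA pathway, starts 41 bases from the ILDR2 start on the opposite strand and did not exceed 0.152 FPKM in any library.

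For each of the 8 genes, the confidence bounds of all 3 libraries of a group lay apart from those of the other group. As the members were chosen on this contrast, and the share over all tested genes was not counted, nothing is read from this. For GYPC the bounds in the libraries labelled IK-KO are listed as 0 throughout. The tables give no fragment counts, so these bounds are the only depth available for single values. Levels can be ordered between genes because FPKM is per length. In wild type, PXYLP1 stood above BEND4, BIN1, ATP8A1, ILDR2, SPSB4, GPA33 and GYPC in that order of means. The libraries of neighbours overlapped between BEND4 and BIN1, BIN1 and ATP8A1, ATP8A1 and ILDR2, and SPSB4 and GPA33. In the libraries labelled IK-KO the order was PXYLP1, SPSB4, BEND4, BIN1, ILDR2, GPA33, ATP8A1 and GYPC, with overlaps between BIN1 and ILDR2, ILDR2 and GPA33, and GPA33 and ATP8A1.

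Rows that overlap a member can take up its fragments or lend it theirs, since the strand setting is not stated. There are 13 such rows, and none exceeded 1.504 FPKM in any library. ZBTB38, a zinc finger gene on the same strand as the end of PXYLP1, was listed at 0.361 FPKM or less. DUSP27, inside the span of GPA33 on the other strand, was listed at 0.180 FPKM or less.

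The flanking genes ask whether a whole stretch of chromosome moved with the pair. The 3 nearest tested genes on each side of each pair were taken by position alone, 24 in all. Of these 4 were called and 20 were not, a share of 16.7% against the 19.9% of all tested genes, and all 4 were higher (10.1% of all tested genes were called higher and 9.75% lower). None of the 18 flanks of the 3 lower pairs was called lower, and none of the 6 flanks of the higher pair was called. Not all flanks are close: those on the ATP8A1 side begin 2021 kb away and those on the GYPC side 4888 kb away. Past the flanks beside BIN1, MYO7B and LIMS2 were called lower (log2 changes -2.42 and -0.51). HS6ST1, farther on, was called higher (0.52). The median log2 change of the 24 was 0.08, beside 0.02 over all tested genes.

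**Figure D2:**
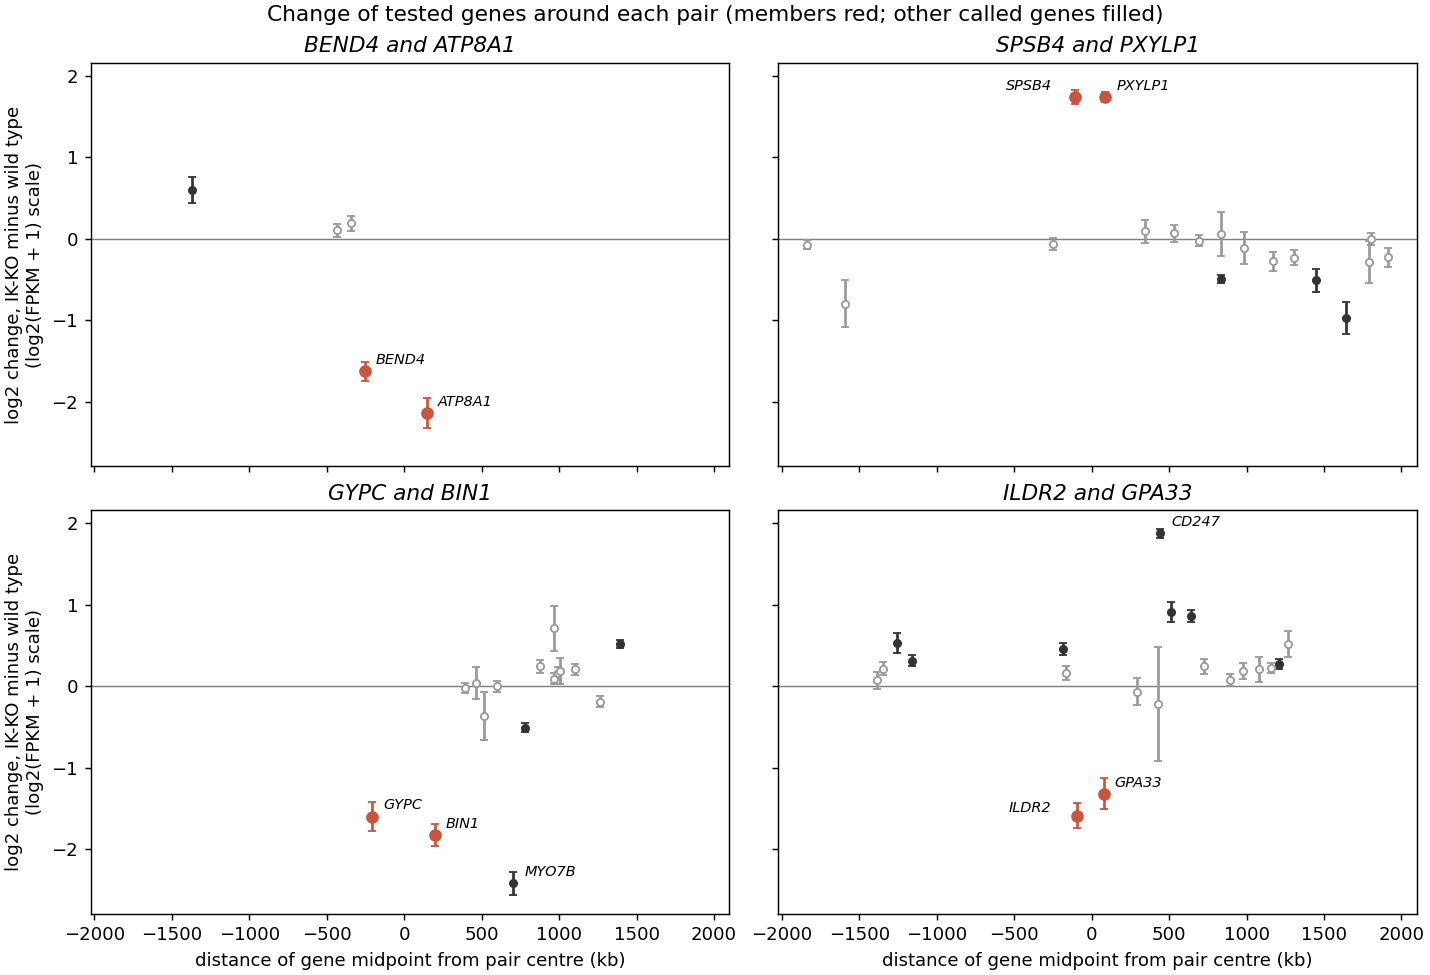
Log2 change between the libraries labelled IK-KO and wild type on the log2(FPKM + 1) scale (y axis, bars show the SE) of every tested gene whose midpoint lies within 2 Mb of the centre of a pair (x axis, kb). The members (red) stand away from the genes beside them, most of which lie near 0, while called genes (filled black) occur in all 4 panels, CD247 and MYO7B farthest from 0.

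Around SPSB4 and PXYLP1, the nearest tested genes were SLC25A36, a mitochondrial nucleotide carrier 70.4 kb away, and RASA2, a RAS-inactivating protein 119 kb away. SLC25A36 measured 37.3, 35.7 and 32.0 FPKM in wild type against 33.1, 32.2 and 34.7 in the libraries labelled IK-KO, groups that overlap. Its log2 change was -0.07 (limma adjusted p 0.575) and that of RASA2 was 0.09 (limma adjusted p 0.700). Farther along the chromosome, 3 of the 16 other tested genes within 2 Mb were called and all 3 were lower, opposite to the pair. Over all tested genes, 19.9% were called and 9.75% were called lower. COPB2, RNF7 and ATP1B3 were not called either, with log2 changes between -0.07 and 0.07. NMNAT3, 1373 kb away, had a log2 change of -0.80 (limma adjusted p 0.0991) at between 0.393 and 3.01 FPKM. Without wild type replicate 1 it was called (limma adjusted p 0.0282), and its alternatives gave 0.0282 to 0.233.

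Beside BEND4, SLC30A9, a zinc transporter gene whose end lies 20.4 kb from it, measured 18.7, 22.6 and 19.4 FPKM in wild type against 24.8, 21.6 and 23.2 in the libraries labelled IK-KO. Its groups overlap and it was not called (log2 change 0.19, limma adjusted p 0.194). TMEM33, a membrane protein of the endoplasmic reticulum, had a log2 change of 0.11 (limma adjusted p 0.410). APBB2, 894 kb away, was higher, with a log2 change of 0.60 (limma adjusted p 0.0378, SE 0.16), but lost its call in 7 of 15 alternatives, at adjusted p up to 0.118. These were the fit without a filter, the fit with a filter at 0.1 FPKM, and the fits that left out wild type replicate 2 or 3 or any of the 3 libraries labelled IK-KO. On the side of ATP8A1 the first tested gene, GUF1, lies 2021 kb away and was not called, nor were GNPDA2 and AC096586.2 behind it (limma adjusted p 0.175, 0.665 and 0.561).

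Beside BIN1, ERCC3, a helicase of transcription factor TFIIH 150 kb away, measured 31.3, 31.7 and 29.7 FPKM in wild type against 31.0, 29.3 and 30.9 in the libraries labelled IK-KO. It was nearly level in all 6 libraries, with a log2 change of -0.02 (limma adjusted p 0.845). The kinase gene MAP3K2 and its divergent transcript MAP3K2-DT followed, with log2 changes of 0.04 and -0.36 (limma adjusted p 0.917 and 0.439). On the side of GYPC no tested gene occurs for 4888 kb, where TSN, NIFK and NIFK-AS1 follow with log2 changes from 0.12 to 0.25, none called. Beyond the 3 flanks, MYO7B, an unconventional myosin gene named after its values were seen, measured 9.75, 13.8 and 10.3 FPKM in wild type against 1.26, 1.42 and 1.16 in the libraries labelled IK-KO. Its midpoint lies 705 kb from the centre of the pair, past several genes that were not called. Measured from edge to edge, as for the flanks, it is nearer: MYO7B starts at 127535802 and BIN1 ends at 127107288. The log2 change of MYO7B was -2.42 (SE 0.15, limma adjusted p 0.000113). Of the 14 other tested genes within 2 Mb of the centre of this pair, 1 was called higher (HS6ST1) and 2 lower. These 2 were MYO7B and, next to it, LIMS2 (log2 change -0.51, limma adjusted p 0.00106). HS6ST1 and LIMS2 were also named after their values were seen. The shares over all tested genes were 10.1% called higher and 9.75% called lower.

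ILDR2 and GPA33 were lower in a stretch where other genes were higher. Of the 18 other tested genes within 2 Mb of the centre of this pair, 7 were called and all 7 were higher. Their share can be set beside the 10.1% of all tested genes called higher. The median log2 change of the 18 was 0.24, against 0.02 over all tested genes. The nearest, TADA1, a subunit of the SAGA coactivator 19.4 kb from ILDR2, was not called (log2 change 0.16, limma adjusted p 0.219). POGK, 39.4 kb away, measured 21.8, 18.7 and 19.2 FPKM in wild type against 27.9, 27.9 and 27.2 in the libraries labelled IK-KO, and its log2 change was 0.46 (limma adjusted p 0.00569, SE 0.07). UCK2, a uridine-cytidine kinase gene, had a log2 change of 0.32 (limma adjusted p 0.0134), and it lost its call without IK-KO replicate 1 and with the median change of its neighbours removed.

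On the other side POU2F1, the gene of the octamer-binding factor OCT1, lies 54.4 kb from GPA33 and was not called (log2 change -0.07, limma adjusted p 0.825). CD247 follows, 264 kb from GPA33, and encodes the zeta chain of the T-cell receptor complex. It measured 65.0, 66.6 and 66.5 FPKM in wild type against 232, 262 and 243 in the libraries labelled IK-KO. Its mean went from 66.0 ± 0.883 to 246 ± 15.4 FPKM (SD, n = 3), and its log2 change was 1.88 (SE 0.06, limma adjusted p 7.79e-06), opposite in sign to ILDR2 and GPA33. AL359962.2, a noncoding row inside CD247, had groups that overlap (limma adjusted p 0.865).

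The median change of the tested genes within 5 Mb, with the pair left out, was 0.19 around ILDR2 and GPA33, 0.08 around BEND4 and ATP8A1, -0.07 around SPSB4 and PXYLP1, and between -0.01 and 0.04 around GYPC and BIN1. With these medians removed, the log2 changes of ILDR2 and GPA33 became -1.77 and -1.51, and those of SPSB4 and PXYLP1 became 1.81 and 1.81. The changes of GPA33 and of the other 4 members moved by less than their spread between libraries. Each local median was smaller in size than the changes of the members beside it. Nothing is read from this, because the members were chosen on this contrast.

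How often neighbours moved together was counted over all consecutive tested genes, as the background for pairs picked by this property. Of 12613 consecutive pairs, both genes were called in the same direction in 512 (4.06%) and in opposite directions in 172 (1.36%). Without chromosomes 6 and 9 the same-direction count was 327 of 11491 pairs (2.85%), so these chromosomes, which hold no member, carry a large part of it. The signs of the changes, called or not, were the same in 56.0% of the pairs. Both genes were called with at least a 2-fold change in the same direction in 33 pairs (0.262%), 24 of them lower and 9 higher, and in opposite directions in 7. Without chromosomes 6 and 9 this count stayed at 33, and among protein-coding genes alone it was 20 of 10540 pairs. The 4 pairs described here are among the 33. Of the other 29, several consist of relatives or of parts of a single locus, such as GIMAP7 and GIMAP6, CASP4 and CASP1, TMC6 and TMC8, and TRGC2 and TRGC1, named after their values were seen. Among the 3570 consecutive pairs at least 77.3 kb apart, 12 (0.336%) had such a joint 2-fold change, the 4 pairs and 8 others. That distance is the smallest gap of a member pair, so the 4 pairs are among the 12 by construction.

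**Figure D3:**
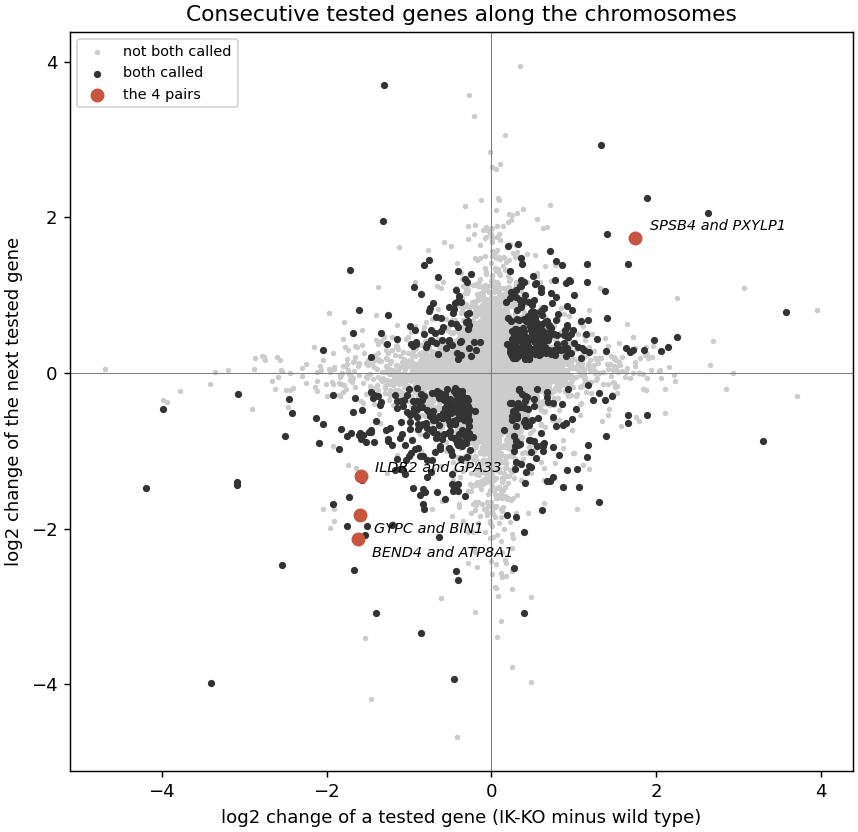
Log2 change of each tested gene (x axis) against that of the next tested gene along the chromosome (y axis), both on the log2(FPKM + 1) scale, for 12613 consecutive pairs: grey where the genes were not both called, black where both were, red for the 4 pairs. Most called pairs lie nearer to 0 than the red points, in the quadrants of equal sign as well as, less often in count (172 against 512), in those of opposite sign.

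Likeness over the 6 libraries was measured by Pearson's r of log2(FPKM + 1), as a description, since any gene with a large difference between the groups follows the same contrast. SPSB4 and PXYLP1 had an r of 0.996, and PXYLP1 took place 21 of 12651 genes by likeness to SPSB4 and SPSB4 place 48 by likeness to PXYLP1. BEND4 and ATP8A1 had an r of 0.995, with BEND4 in place 36 by likeness to ATP8A1 and ATP8A1 in place 64 by likeness to BEND4. GYPC and BIN1 had an r of 0.983 with places of 270 (BIN1 for GYPC) and 183 (GYPC for BIN1), and ILDR2 and GPA33 an r of 0.913 with places of 927 (GPA33 for ILDR2) and 901 (ILDR2 for GPA33). Between 464 and 695 genes reached an r of at least 0.95 with a given member. By these places, from 21 to 927, the partner was never the nearest. Among genes with at least a 2-fold change outside the pair, the most like were LGMN for BEND4, MORC4 for ATP8A1, CCR9 for SPSB4, ATF5 for PXYLP1, PRKACB for GYPC, CHI3L2 for BIN1, CASP4 for ILDR2 and PPP1R16B for GPA33, at an r of 0.9935 or more. None of the 8 lies within the flanks of its member, and CCR9 alone shares a chromosome with it. LZTFL1 and CCR9, DENND2D and CHI3L2, CASP4 and CASP1, and RADX and MORC4 are themselves among the 33 pairs.

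Relatives of the members were compared in lists written from general knowledge of their families. Of 95 listed genes 58 were tested and 11 were called, 5 higher and 6 lower, a share of 19.0% against 19.9% of all tested genes. Of 11 tested flippases and partners of ATP8A1, 3 were called. The largest change was in the flippase ATP11B (log2 change -1.03, SE 0.11, limma adjusted p 0.00120). Of 4 tested relatives of BEND4, BEND6 was called and was higher (log2 change 0.93, limma adjusted p 0.00465), a direction opposite to that of BEND4. None of 9 tested partners and relatives of SPSB4 was called at an adjusted p under 0.05.

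Of 10 tested genes of glycosaminoglycan linkage and chain start, in which PXYLP1 acts, 2 were called, both higher, with EXTL2 changing most (log2 change 0.58, limma adjusted p 0.00765). Of 6 tested glycophorin and membrane skeleton genes SPTAN1 alone was called (log2 change -0.28, limma adjusted p 0.0156). With the median of its neighbours on chromosome 9 removed its change was 0.08 and not called, and leaving out wild type replicate 1 also ended the call (limma adjusted p 0.0552), as did leaving out replicate 2 (0.0564) or replicate 3 (0.0544) of IK-KO. Of 16 tested relatives and endocytic partners of BIN1, 4 were called, 1 higher and 3 lower, with SYNJ2 changing most (log2 change -0.54, limma adjusted p 0.0110). No gene of the tricellular junction list of ILDR2 reached the limit for testing, and neither of the 2 tested relatives of GPA33 was called.

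The label of the cells was checked with markers, since GYPC is known from red cells and GPA33 from intestine. Of 11 T-lineage markers 9 were at 1 FPKM or more in every library. The sum of the list ran from 1287 to 1348 FPKM in wild type and from 1540 to 1736 FPKM in the other group. That list includes CD247, whose mean was 66.0 FPKM in wild type and 246 FPKM in the other group. No marker of the 4 other lists (B cell, myeloid, erythroid and intestinal epithelium) reached 1 FPKM in every library. The sum over the 6 erythroid markers ran from 0 to 0.660 FPKM in wild type and from 0.304 to 0.987 FPKM in the other group, with HBB and ALAS2 at 0 in all 6. The sum over 6 intestinal markers was at most 0.153 FPKM in wild type and at most 0.101 FPKM in the other group, with EPCAM, CDX1, CDX2 and KRT20 at 0 in all 6. The sum over 6 B cell markers ran from 1.52 to 3.66 FPKM in wild type and from 1.10 to 1.64 FPKM in the other group, and the sum over 6 myeloid markers was at most 0.617 and 0.605 FPKM.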

How the data were processed

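The authors deposited 1 table of FPKM values per library, 6 in all, each row also carrying its confidence limits and a status of the estimate. The submitters' processing notes name STAR 2.6.1c, Cufflinks 2.2.1, HOMER 4.10 and hg38, without a role or an order. The annotation release and the strand setting are not given in the sources used here. Positions were checked against GENCODE release 44 on GRCh38 and matched for 49727 of 49727 single-row identifiers of equal version. Starts are counted from 1.

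Each table holds between 21254 and 21887 rows above 0, and the FPKM sum to between 699352 and 738051, with 13.0% to 14.4% of mitochondrial origin. No counts are given, so the precision of a value is known only from its bounds. Rows of an identifier were summed (110 identifiers lie on several rows), and the 29 identifiers not estimated in some library were left out. Groups came from the titles of the samples.

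R 4.3.3 and limma 3.58.1 were used to fit changes of log2(FPKM + 1) by lmFit and eBayes with a trend, without covariates. Tests were two-sided, p-values were adjusted after Benjamini-Hochberg across all 12652 genes that averaged 1 FPKM or more, and a gene is called at an adjusted p under 0.05. The fit was tested on simulated data. A fit across genes was preferred to single-gene tests because each group holds 3 libraries. Before adjustment, 4227 genes had a p under 0.05.

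The members, lists and flanks were chosen with earlier results of these data known. Named genes were the members, IKZF1 and the 3 nearest tested genes on each side of a pair. Untested coding genes that lie between members or overlap them were also named. Of the untested coding genes farther away, only DCAF4L1 and PROC are given. From each family list the gene with the largest change among its called genes was named. For each member the gene of highest r outside its pair was named too. Others were named after their values were seen. Alternatives changed the pseudocount, filter, scaling, trend, replicate block, failed estimates, neighbours' median, or left out a library.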

Additional observations from a re-analysis of the deposited data

How the results depend on the processing

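All 8 members kept their direction and a change of at least 1 on the log2 scale in each of 15 alternatives. The alternatives for the filter, the trend, the replicate block and the failed estimates cannot move a member's change. As the members were chosen on this contrast, nothing is read from this count. With a pseudocount of 0.1 their changes were -2.07 for BEND4, -3.45 for ATP8A1, 1.996 for SPSB4, 1.80 for PXYLP1, -4.41 for GYPC, -2.57 for BIN1, -2.37 for ILDR2 and -2.14 for GPA33. The fits that each left out a library gave -1.70 to -1.58, -2.29 to -1.99, 1.70 to 1.78, 1.70 to 1.76, -1.69 to -1.55, -1.91 to -1.77, -1.67 to -1.46 and -1.47 to -1.16 in the same order.

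The count of consecutive pairs called in the same direction, 512, was 266 without the filter, 311 with the replicate block, 296 with the neighbours' median removed, and 260 to 350 in the fits that each left out a library, the lowest without IK-KO replicate 2 and 261 without wild type replicate 1. With median-of-ratios or with upper quartile scaling, 594 consecutive pairs were called in the same direction. All genes called numbered between 1692 and 2803 in 15 alternatives and 447 at an unadjusted p under 0.05 with at least a 2-fold change. The flanks called, 4, were 2 to 5 in the fits that each left out a library, with 2 without IK-KO replicate 1. The relatives called, 11, were 7 with the neighbours' median removed and 7 to 9 with a library left out, with 7 without IK-KO replicate 2. With median-of-ratios scaling 15 relatives were called, and with upper quartile scaling 14. IKZF1 changed by 0.75 to 0.97 and kept its call in all 15.

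Equal replicate numbers were not treated as a pairing. The deviations of libraries with the same number had an r of 0.0669, 0.0248 and 0.00546 over the tested genes, so no strong shared effect was visible. Whether such libraries were prepared together is not in the labels, and these values cannot decide it. The fit with the replicate block called 1805 genes, 4 flanks and 10 relatives.

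Flanks that were not called could change sign. With the neighbours' median removed ATP1B3 changed by 0.0541, ERCC3 by 0.00922, TADA1 by -0.0129 and the relative SPTAN1, called before, by 0.0844. With a library left out the changes ran from -0.196 to 0.0212 for GNPDA2, from -0.0311 to 0.693 for AC096586.2, from -0.0542 to 0.168 for RASA2, from -0.0449 to 0.144 for RNF7, from -0.0614 to 0.0280 for ATP1B3, from -0.00555 to 0.386 for NIFK, from -0.0487 to 0.00472 for ERCC3, from -0.162 to 0.183 for MAP3K2, from -0.209 to 0.0588 for POU2F1 and from -0.988 to 0.164 for AL359962.2. TSN became called with the neighbours' median removed, with a limma adjusted p of 0.0406 where all its alternatives gave 0.0406 to 0.248. The causes of these differences were not tested. Levels under about 1 FPKM have bounds that often reach 0, which limits what can be said of the lower members.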
